A study of Mus musculus with 19 samples.

Results

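The genes described here are 10 genes of pyruvate, lactate and glucose metabolism, the fuels of the oocyte and the early embryo. They were chosen by name from the 25891 genes of the expression table: Ldha and Ldhb (lactate dehydrogenase), Mpc1 and Mpc2 (mitochondrial pyruvate carrier), Pdha1 (pyruvate dehydrogenase), Slc16a1 (monocarboxylate transporter), Slc2a1 (glucose transporter), Hk1 and Pfkp (glycolysis) and G6pdx (pentose phosphate pathway). The study asked what becomes of the oocyte and embryo transcriptome when CPEB3, a cytoplasmic polyadenylation element-binding protein, is deleted in the oocyte. RNA was sequenced in 19 libraries: 5 labelled Het and 5 labelled KO from oocytes at metaphase II (MII), and 5 labelled Het and 4 labelled KO from embryos at the 2cell stage.

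KO stands for CPEB3 LoxP/LoxP; ZP3 Cre+/-, in which the ZP3 promoter drives Cre in the growing oocyte, so the gene is lost in the egg and not in the rest of the mouse, and Het stands for CPEB3+/-, with a remaining wild-type allele. Superovulated BL6 females of 6 to 10 weeks gave the cells, after 5 IU of PMSG and 5 IU of hCG. The protocol cultures zygotes of mated females in M16 medium and collects 2cell embryos 37 h after hCG. It does not state that the sequenced embryos grew in that medium, and the labels do not give the genotype of the males. The study's crosses of KO females used wild-type males, which is not stated again for the sequenced embryos. Each library is a pool of a few cells according to the methods. Nothing in the labels says which cells of a group came from separate females, so the p-values measure the spread between these libraries.

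Mouse oocytes and cleavage-stage embryos draw energy mainly from pyruvate, which is oxidised in mitochondria, and depend little on glycolysis until later stages. Pyruvate and lactate cross the cell membrane through monocarboxylate transporters, lactate dehydrogenase converts the one into the other, and the mitochondrial pyruvate carrier brings pyruvate to the pyruvate dehydrogenase complex. The little glucose that is used is partly routed into the pentose phosphate pathway, which yields NADPH and ribose for nucleotides.

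The deposited values are FPKM, fragments counted relative to exon length and to the depth of the library, so levels may be compared between genes as far as the lengths used hold, and each level is a share of its library, so a change in the total RNA of the cells or in the absolute amount of a transcript cannot be seen, and fewer cells and less RNA per cell cannot be told apart. The libraries were made with a kit that primes on poly(A) tails, and the part of tail length in the levels was not tested. Depth, estimated from the step between low values, was 17.2 to 23.5 M fragments. The summed FPKM of 9 oocyte markers was 909 to 1248 in the MII libraries and 160 to 230 in the 2cell libraries, and that of 6 markers of the 2cell stage was 37.2 to 56.5 and 347 to 468, so each library matched its labelled stage. The 13 listed markers of cumulus and granulosa cells summed to 0.305 to 0.511 in MII and 1.14 to 2.25 in 2cell libraries. Foxl2 was at 0 in all MII libraries, Fshr and Inhba in all KO-labelled 2cell libraries and Cyp11a1 in all Het-labelled 2cell libraries. Cyp19a1, the highest of these markers in MII, had a mean of 0.303 FPKM in Het-labelled MII and 0.0422 in Het-labelled 2cell libraries. Of the 4 of them tested in 2cell embryos, Vim (0.487 to 1.03 against 0.230 to 0.462 FPKM, log2 fold change -1.12, adjusted p = 0.0105) and Tnfaip6 (-1.01, adjusted p = 0.0145) were lower in KO-labelled libraries, while Star (0.45, adjusted p = 0.249) and Amhr2 (0.06, adjusted p = 0.858) were not called. Of the other 9, too low to be tested, 6 had a higher mean in KO-labelled 2cell libraries, such as Areg (0.0247 FPKM in Het-labelled and 0.156 in KO-labelled libraries) and Foxl2 (0.0331 and 0.0911), and 3 a lower one, such as Ptgs2 (0.0514 and 0.0176). The part of these cells in the 2cell differences given below was not tested. The blood genes Hba-a1 and Hba-a2 together read 0.0512 to 0.428 in MII and 46.2 to 146 in 2cell libraries. Cpeb3 was not lower in the libraries labelled KO. It read 0.0450 to 0.101 FPKM in Het and 0.131 to 0.215 in KO MII libraries (log2 fold change 0.53 ± 0.12, SE, limma adjusted p = 0.0144), and 0.0204 to 0.0566 against 0.0362 to 0.0633 in the 2cell libraries, where it was too low to be tested. Zscan4d, of the 2cell list, read 0.825 to 1.51 FPKM in Het-labelled and 7.07 to 14.3 in KO-labelled MII libraries (log2 fold change 2.89, limma adjusted p = 9.07e-05). In 2cell libraries it read 58.8 to 169 against 38.9 to 64.7 (-1.03, adjusted p = 0.0396). It was the only one of the 6 listed genes called there, while 4 of the 6 had values above 0 and the list median was 0.24. In MII 3 of them were tested, and Tcstv1 (-0.01) and Tcstv3 (0.08) were not called. The Cpeb3 value covers the whole gene and not the deleted part alone, so genotypes are given below as the libraries are labelled.

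In MII oocytes only Mpc2 differed between the labelled genotypes among the members that could be tested, and it was higher in the libraries labelled KO, a call that was lost in 5 of the 10 fits without a library. In 2cell embryos G6pdx and Ldha were higher and Mpc1 was lower in the KO-labelled libraries, by 2.36-fold, 1.78-fold and to 0.529 of the Het-labelled level. None of these calls between genotypes, in either stage, was kept when the replicate letter of the libraries entered the fit as a block. From MII to 2cell, in both genotypes, Ldhb fell and Mpc2 rose. Ldha and Pfkp were higher in 2cell libraries too, but they could be tested between stages only through those libraries. Slc16a1 rose in the Het-labelled and G6pdx in the KO-labelled libraries. For Mpc1, Slc16a1 and G6pdx the difference between genotypes itself differed between the stages, the call of Slc16a1 depending on single libraries.

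Differences were tested with limma on log2(FPKM + 0.1) across all genes with at least 0.1 FPKM in enough libraries, which understates the change of low genes. A gene was called where the Benjamini-Hochberg adjusted p was under 0.05 and the change was over 1.5-fold. In MII oocytes 7 of the 10 members were tested and 1 was called, as higher, against 12.9% of all 10515 genes tested, 5.59% higher and 7.29% lower. In 2cell embryos 9 were tested and 3 were called, 2 higher and 1 lower, against 18.3% of 14051 genes, of which 8.41% were called higher and 9.85% lower. The members' share of calls was therefore 1 of 7 and 3 of 9, and no test of these counts was made. Between the stages 5 of 9 members were called in each genotype, 4 higher and 1 lower. Of these, Ldha and Pfkp reached 0.1 FPKM in no MII library, so their higher 2cell level was fixed by their being tested, and of the other 7 members 3 were called in each genotype, 2 higher and 1 lower. Over all genes 66.6% were called in Het-labelled libraries, 38.0% higher and 28.5% lower, and 65.1% in KO-labelled ones, 38.2% higher and 27.0% lower. The stages did not overlap for 58.9% and 59.3% of all genes, and for 6 and 5 of the 9 members, Ldha and Pfkp included. As these shares of all genes also hold genes that passed the filter in a single stage, nothing is read from them about the members. The difference of the differences was called for 4 of 9 members, 2 in each direction, and for 3 of 7, 1 higher and 2 lower, without Ldha and Pfkp, against 7.64% of all genes, 3.71% higher and 3.93% lower. The split of calls over all genes moved with the scaling of the libraries. In MII oocytes 43.4% of the calls were higher in KO-labelled libraries with the scaling used here, 57.1% with the values as deposited and 70.1% after scaling to the column sum, and in 2cell embryos these shares were 46.0%, 52.3% and 81.0%. Column-sum scaling moved the median of all genes to 0.15 in MII oocytes and 0.26 in 2cell embryos on the log2 scale, where it was 0.01 and -0.01. It moved the share of higher calls for the difference between stages from 48.6% to 66.0% and the median from 0.04 to 0.12.

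**Figure D1:**
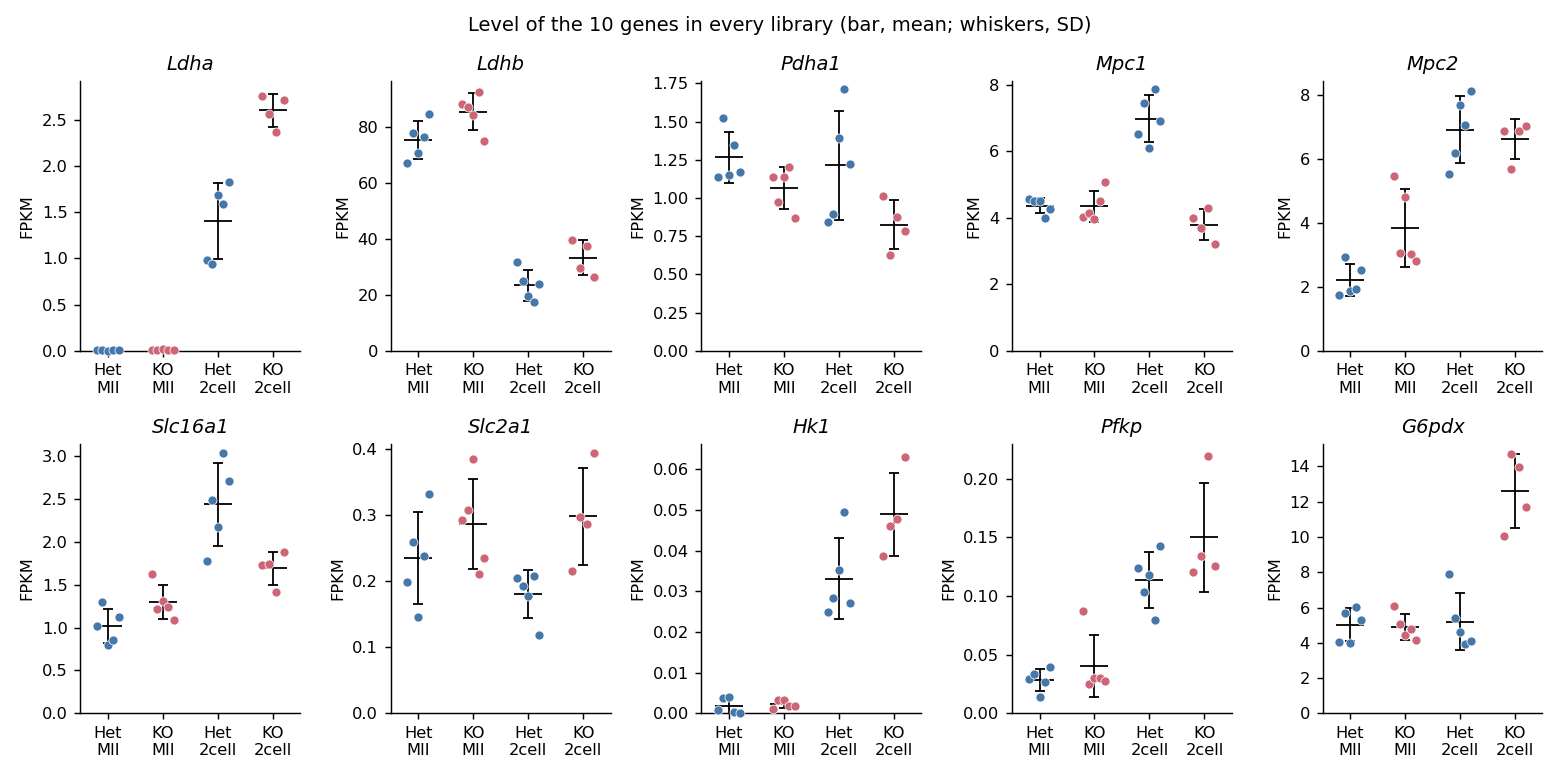
FPKM (y axis, from 0, its own scale in each panel) of the 10 genes in each of the 19 libraries. Blue points are libraries labelled Het, red points libraries labelled KO, bars are group means and whiskers 1 SD. Ldhb had the highest level in every group, Ldha appeared in the 2cell libraries, and the KO-labelled 2cell libraries lie apart from the Het-labelled ones for Ldha, Mpc1, Slc2a1 and G6pdx.

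CPEB proteins bind U-rich elements in the 3′ untranslated region (3′ UTR), close to the polyadenylation signal. The longest annotated 3′ UTR of each gene was therefore searched, on the strand of the transcript, for the elements TTTTAT and TTTTAAT and for the signals AATAAA and ATTAAA, written as DNA. In the last 100 bases an element was found in 0 of the 10 members and in 19.6% of the 9766 tested genes with a 3′ UTR of at least that length. A polyadenylation signal was found there in 8 of 10 members and in 82.2% of the genes. Anywhere in the 3′ UTR, 6 of 10 members had an element, against 62.9% of the genes. The absence of these letters from this window says nothing about binding. The sites nearest to the end of the transcript are shown for the 4 members that were called between genotypes, from GENCODE vM21 (build GRCm38), 5′ to 3′ on the transcript's strand, with the element or signal in capitals. Ldha has an element 119 bases and a signal 20 bases before its end, Mpc1 has elements 254 and 177 bases and a signal 23 bases before its end, and Mpc2 and G6pdx have a signal at 21 and 23 bases and no element in their 3′ UTRs of 275 and 724 bases.
Ldha element, chr7:46855501-46855522, plus strand: acaggataTTTTATatattata
Ldha signal, chr7:46855600-46855621, plus strand: tcatgccaAATAAAaccttgaa
Mpc1 element, chr17:8297400-8297421, plus strand: aatgatggTTTTATctatagca
Mpc1 element, chr17:8297477-8297498, plus strand: gaacaaaaTTTTATaactacaa
Mpc1 signal, chr17:8297631-8297652, plus strand: ttaatggcAATAAAtggtttaa
Mpc2 signal, chr1:165481186-165481207, plus strand: ttgtccatAATAAAccgtactt
G6pdx signal, chrX:74409492-74409513, minus strand: accctgccATTAAAtcctcaaa

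Lactate dehydrogenase is built from the subunits encoded by Ldha (chr7:46841475-46855628, plus strand) and Ldhb (chr6:142490249-142507958, minus strand), and mixtures of the subunits make its isoenzymes. Ldhb was the most abundant member throughout. It read 67.3, 77.9, 70.8, 76.6 and 85.0 FPKM in the Het-labelled MII libraries A to E and 88.2, 87.5, 84.3, 92.8 and 75.2 in the KO-labelled ones. At the 2cell stage it read 31.8, 24.9, 19.6, 17.4 and 24.0 in Het-labelled libraries and 39.8, 29.8, 37.6 and 26.2 in KO-labelled ones. All 2cell libraries lay below all MII libraries, while the genotypes overlapped in each stage. The fall from MII to 2cell had a log2 fold change of -1.95 ± 0.14 in Het-labelled (adjusted p = 4.72e-10) and -1.53 ± 0.15 in KO-labelled libraries (adjusted p = 3.70e-08). Between genotypes Ldhb passed in neither stage, with 0.08 ± 0.08 in MII (95% interval -0.09 to 0.26) and 0.46 ± 0.21 in 2cell libraries (-0.01 to 0.93, adjusted p = 0.155). In 2cell embryos it was called, at 0.60 and adjusted p = 0.0450, once the Het-labelled library A was left out, and at 0.81 and adjusted p = 0.0163 after column-sum scaling.

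Ldha was not detectable before fertilisation at this depth. All 10 MII libraries held 0 to 0.0133 FPKM, below the 3-fragment floor of at most 0.0850 FPKM. Fragments and floors were reckoned at the length of the longest transcript, so they are approximate. In 2cell embryos Ldha read 0.985, 0.943, 1.68, 1.59 and 1.83 FPKM in the Het-labelled libraries and 2.76, 2.57, 2.37 and 2.72 in the KO-labelled ones. The groups did not overlap, and the Het-labelled libraries A and B lay below the rest of their group. Among the members A and B were also the lowest of that group for Pdha1 and Mpc2 and the highest for Ldhb and G6pdx. For the other members they did not lie together at an end. Against the floor, Ldha was at least 16.5-fold higher in 2cell than in MII libraries labelled Het and at least 30.9-fold higher in those labelled KO. It passed the filter through the 2cell libraries alone, so a difference between stages follows from its being tested. In 2cell embryos Ldha was higher in KO-labelled libraries by 0.84 ± 0.20 on the log2 scale (adjusted p = 0.0164), and the change between stages differed between genotypes by 0.84 ± 0.22 (adjusted p = 0.0233). As the MII libraries are all under the floor, the latter value repeats the 2cell difference and shows no dependence on stage. With a pseudocount of 1 FPKM the difference between genotypes fell to 0.56, under the 1.5-fold threshold. Ldha has processed copies, and reads may be split among them: Ldha-ps2 was listed at 0 in all MII libraries and at 0 to 0.330 FPKM in 2cell libraries.

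The share of Ldha in the summed FPKM of both subunits does not depend on how a library is scaled. It was listed at no more than 0.0158% in the MII libraries, from Ldha values under the 3-fragment floor, which allows up to 0.0826% to 0.121% there. It was 3.01%, 3.65%, 7.92%, 8.38% and 7.09% in the Het-labelled 2cell libraries and 6.48%, 7.93%, 5.91% and 9.38% in the KO-labelled ones. The shares overlapped, at 6.01% ± 2.50 (SD, n = 5) and 7.42% ± 1.55 (n = 4), and the geometric mean was 1.34 times as high in the KO-labelled libraries (two-sided exact permutation test, p = 0.357, adjusted p = 0.393 over the 11 tests of ratios). The folds of ratios given below are likewise those of geometric means, on which the tests were made. Ldhb thus made up most of the sum in every library of both stages.

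The mitochondrial pyruvate carrier is a complex of the proteins encoded by Mpc1 (chr17:8282904-8297662, plus strand) and Mpc2 (chr1:165460637-165481215, plus strand), and both are needed for transport. Mpc1 read 4.55, 4.51, 4.52, 4.0 and 4.26 FPKM in the Het-labelled MII libraries and 4.03, 4.15, 3.97, 4.5 and 5.08 in the KO-labelled ones. The 2cell libraries held 6.53, 7.45, 6.10, 7.88 and 6.91 in the Het-labelled and 3.99, 3.68, 4.30 and 3.20 in KO-labelled libraries. The genotypes overlapped in MII and did not overlap in 2cell embryos, where every KO-labelled library lay below every Het-labelled one. Mpc1 was the only member called lower in KO-labelled libraries, with a log2 fold change of -0.92 ± 0.13 in 2cell embryos (adjusted p = 0.00271). Its MII value was -0.11 ± 0.11 (adjusted p = 0.508), and 0.07 after column-sum scaling. The change between stages differed between genotypes by -0.76 ± 0.17 (adjusted p = 0.0120). In neither genotype did the stage change itself pass 1.5-fold (0.42 in Het-labelled and -0.35 in KO-labelled libraries, the former -0.12 after column-sum scaling). After that scaling the 2cell difference was -0.57, past the adjusted p threshold (0.0130) and under 1.5-fold.

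Mpc2 read 1.76, 2.92, 1.86, 1.94 and 2.52 FPKM in the Het-labelled MII libraries and 5.48, 3.04, 4.80, 3.02 and 2.82 in the KO-labelled ones. Its 2cell values were 5.54, 6.20, 7.69, 7.06 and 8.12 in Het-labelled and 6.88, 5.68, 6.88 and 7.03 in KO-labelled libraries. The KO-labelled MII libraries A and C stood above the others of their group, and library E lay below the Het-labelled library B. Mpc2 was higher in KO-labelled MII libraries by 0.65 ± 0.18 on the log2 scale (adjusted p = 0.0306). This call was lost without the Het-labelled library A (0.59, adjusted p = 0.0779), C (0.63, 0.0715) or D (0.60, 0.0737). It was also lost without the KO-labelled library A (0.53, 0.0561) or C (0.56, 0.0719). The same held with no filter on low values (0.62, 0.0646), with a pseudocount of 1 FPKM (0.50) and with the replicate letter as a block. In 2cell embryos the value was -0.11 ± 0.13 (95% interval -0.39 to 0.17, adjusted p = 0.571) and 0.24 after column-sum scaling. Mpc2 rose from MII to 2cell by 1.38 ± 0.16 in Het-labelled (adjusted p = 2.94e-07) and by 0.67 ± 0.17 in KO-labelled libraries (adjusted p = 0.00174, but 0.26 and 0.235 after column-sum scaling), and these changes differed by -0.72 ± 0.23 (adjusted p = 0.0651), which did not pass.

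The ratio of Mpc1 to Mpc2 was 2.59, 1.54, 2.43, 2.06 and 1.69 in the Het-labelled MII libraries and 0.735, 1.36, 0.828, 1.49 and 1.80 in the KO-labelled ones. The 2cell ratios were 1.18, 1.2, 0.794, 1.12 and 0.851 against 0.580, 0.649, 0.624 and 0.456. All Het-labelled MII ratios lay above 1 and all KO-labelled 2cell ratios below it, but which of the pair is the higher depends on the lengths by which fragments are divided: the longest transcript has 961 bases for Mpc1 and 4015 for Mpc2, and at these lengths Mpc2 had more fragments than Mpc1 in all Het-labelled MII libraries. A length cancels when the ratio is compared between groups. The ratio in KO-labelled libraries was 0.580 of that in Het-labelled libraries in MII (exact permutation test, p = 0.0317, adjusted p = 0.0437) and 0.564 of it in 2cell embryos (p = 0.00794, the smallest these group sizes allow, adjusted p = 0.0175). In MII the groups overlapped, and the p of the same exact permutation test rose to as much as 0.0714 without the Het-labelled library A, C or D. Between stages the ratio fell to 0.501 in Het-labelled (p = 0.00794, adjusted p = 0.0175) and 0.488 in KO-labelled libraries (p = 0.0238, adjusted p = 0.0374).

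Pdha1 (chrX:160122209-160138414, minus strand) encodes the catalytic subunit of pyruvate dehydrogenase, which turns pyruvate into acetyl-CoA. Its level was 1.14 to 1.52 FPKM in Het-labelled and 0.866 to 1.2 in KO-labelled MII libraries, and 0.843 to 1.71 against 0.628 to 1.01 in 2cell libraries. The genotypes overlapped in both stages. Its log2 fold change was -0.32 ± 0.11 in MII (95% interval -0.56 to -0.08, adjusted p = 0.0574) and -0.53 ± 0.21 in 2cell embryos (-0.99 to -0.06, adjusted p = 0.104), and it was called in neither. Between stages it was not called either (-0.32 ± 0.16 in Het-labelled and -0.48 ± 0.17 in KO-labelled libraries).

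**Figure D2:**
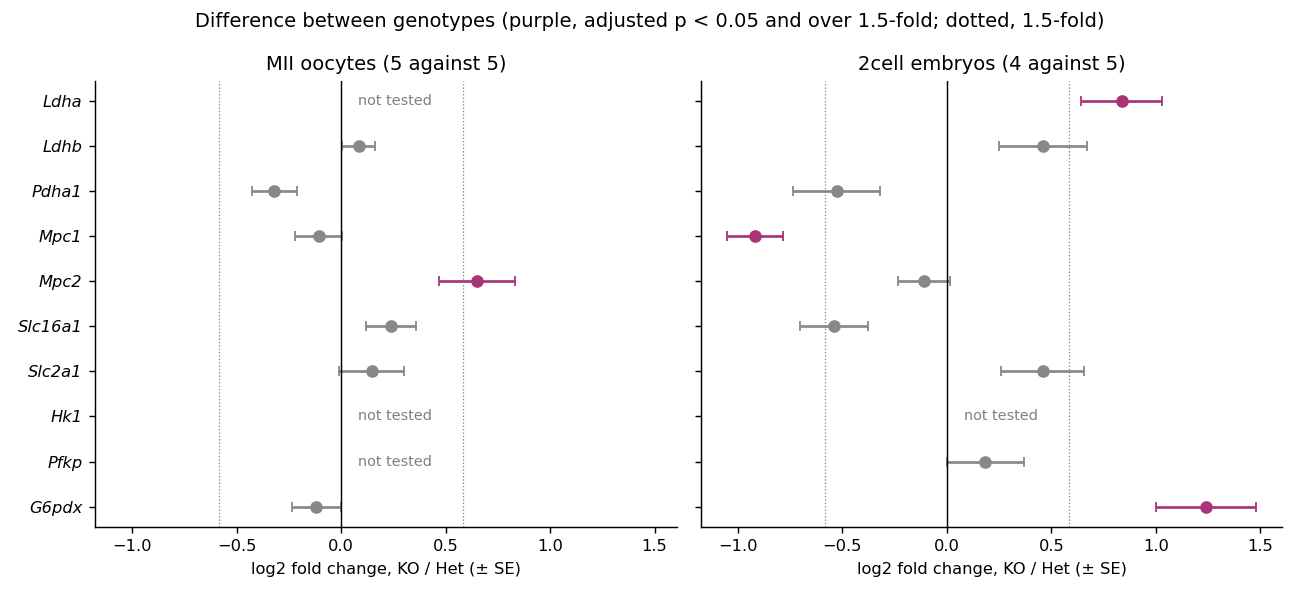
Log2 fold change of each member between libraries labelled KO and Het (x axis, limma, ± SE) in MII oocytes and 2cell embryos, with called members in purple and the 1.5-fold threshold dotted. Mpc2 passed in MII oocytes, and Ldha, Mpc1 and G6pdx passed in 2cell embryos.

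Slc16a1 (chr3:104638668-104658463, plus strand) encodes the monocarboxylate transporter MCT1, which carries lactate and pyruvate together with protons. It read 1.02, 1.30, 0.798, 0.857 and 1.12 FPKM in the Het-labelled MII libraries and 1.63, 1.22, 1.31, 1.24 and 1.09 in the KO-labelled ones. Its 2cell values were 1.78, 2.49, 2.17, 3.03 and 2.71 in Het-labelled and 1.73, 1.74, 1.42 and 1.88 in KO-labelled libraries. The Het-labelled 2cell libraries lay above all MII libraries of that genotype, and only library A of them overlapped the KO-labelled ones. Slc16a1 rose between stages by 0.95 ± 0.14 in Het-labelled libraries (adjusted p = 6.71e-06), a rise of 0.44 after column-sum scaling and then under 1.5-fold. In KO-labelled libraries the value was 0.22 ± 0.15 (adjusted p = 0.198), and -0.17 after that scaling. The stage changes differed by -0.73 ± 0.20 (adjusted p = 0.0338), a call that was lost in 8 of the 19 fits without a library: Het-labelled 2cell B, D or E, Het-labelled MII C or D, KO-labelled 2cell C, and KO-labelled MII C or D (adjusted p up to 0.0705). In 2cell embryos the difference between genotypes was -0.54 ± 0.16 (adjusted p = 0.0441), under the 1.5-fold threshold, and it was called, at -0.62, without the Het-labelled library A. In MII it was 0.24 ± 0.12 (adjusted p = 0.173).

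Slc2a1 (chr4:119108711-119137984, plus strand) encodes the glucose transporter GLUT1. It was low, at 0.146 to 0.332 FPKM in Het-labelled and 0.211 to 0.385 in KO-labelled MII libraries, or 11.2 to 26.7 fragments a library. The 2cell libraries held 0.205, 0.193, 0.178, 0.207 and 0.118 in Het-labelled and 0.216, 0.297, 0.286 and 0.395 in KO-labelled libraries. These groups did not overlap, as was the case for 4 of the 9 members tested and 20.0% of all genes tested. The difference did not pass the test (0.46 ± 0.20, 95% interval 0.02 to 0.90, adjusted p = 0.133), except after column-sum scaling (0.70, adjusted p = 0.0331). In MII it was 0.15 ± 0.15 (adjusted p = 0.522) and -0.02 with the GC trend removed. Between stages its values were -0.40 ± 0.15 in Het-labelled libraries (adjusted p = 0.0257) and -0.07 ± 0.16 in KO-labelled ones (adjusted p = 0.720, and 0.04 with the values as deposited), neither called.

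The ratio of Slc16a1 to Slc2a1 was 4.5 ± 0.951 (SD, n = 5) in Het-labelled and 4.68 ± 1.04 (n = 5) in KO-labelled MII libraries (exact permutation test, p = 0.730, adjusted p = 0.730). In the Het-labelled 2cell libraries it was 8.67, 12.9, 12.2, 14.6 and 22.9, and in the KO-labelled ones 8.02, 5.84, 4.95 and 4.76. The genotypes did not overlap in 2cell embryos, and the ratio in KO-labelled libraries was 0.426 of that in Het-labelled ones (exact permutation test, p = 0.0159, adjusted p = 0.0291). From MII to 2cell the ratio rose 3.06-fold in Het-labelled libraries (exact permutation test, p = 0.00794, adjusted p = 0.0175). In KO-labelled libraries the stages overlapped, with a ratio 1.26 times that of MII (exact permutation test, p = 0.198, adjusted p = 0.243), and p = 0.0317 with a pseudocount of 1 FPKM on both values. Slc2a1 rests on few fragments, which limits the precision of this ratio.

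**Figure D3:**
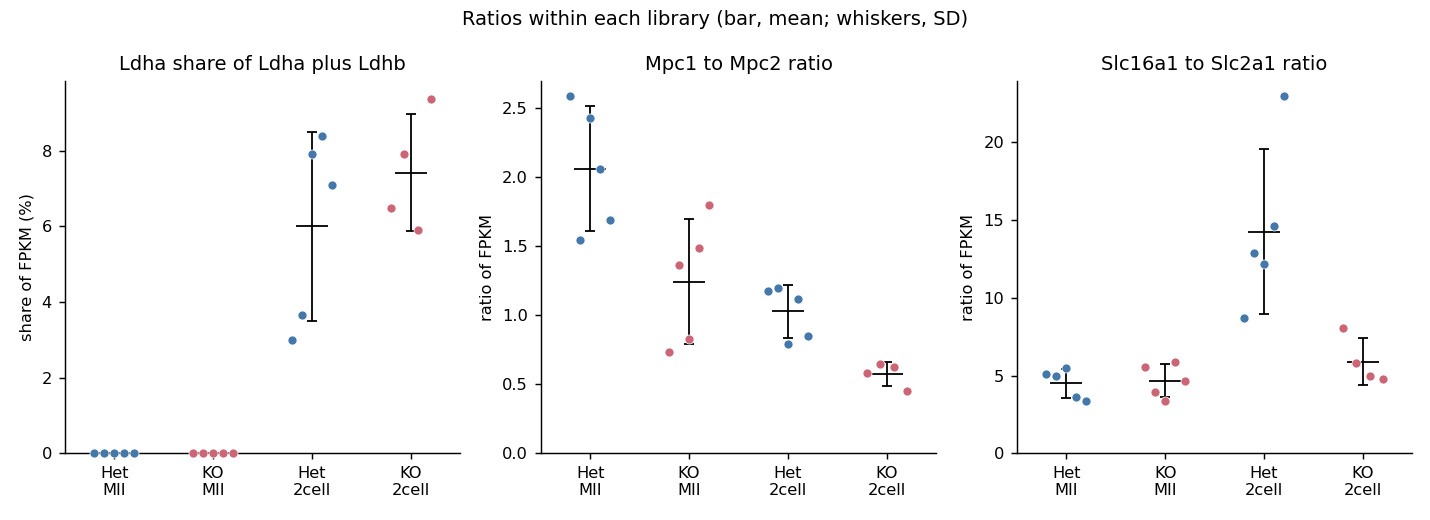
The share of Ldha in the summed FPKM of Ldha and Ldhb (percent), and the ratios of Mpc1 to Mpc2 and of Slc16a1 to Slc2a1 (y axes from 0), in each library. Blue points are libraries labelled Het, red points libraries labelled KO, bars are means and whiskers 1 SD. In 2cell embryos both ratios were lower in every KO-labelled library than in any Het-labelled one, while the shares of Ldha overlapped.

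Hk1 (chr10:62268855-62379909, minus strand) encodes hexokinase 1, which phosphorylates glucose as it enters the cell. It was listed at 0 to 0.00412 FPKM in all 10 MII libraries, under the 3-fragment floor. The 2cell values were 0.0249 to 0.0496 FPKM in Het-labelled libraries, 4 of 5 of them under the floor, and 0.0387 to 0.0631 in KO-labelled ones, none of them under it. The groups overlapped. With a median of 2.35 and 3.58 fragments, Hk1 was not tested in any comparison and a difference was not detectable at this depth. Pfkp (chr13:6579768-6648778, minus strand) encodes the platelet-type phosphofructokinase, which catalyses the committed step of glycolysis. It read 0.0136 to 0.0395 and 0.0250 to 0.0871 FPKM in Het-labelled and KO-labelled MII libraries, where it was too low to be tested, and 0.0799 to 0.143 and 0.120 to 0.220 in 2cell libraries. All 2cell libraries of a genotype lay above all its MII libraries. The log2 values of 2cell over MII were 0.65 ± 0.14 in Het-labelled and 0.76 ± 0.14 in KO-labelled libraries, and both fell under 1.5-fold with a pseudocount of 1 FPKM, the former also after column-sum scaling (0.42). As with Ldha, no MII library reached 0.1 FPKM and Pfkp passed the filter through the 2cell libraries alone, so no p is given for these differences. Between genotypes in 2cell embryos the value was 0.18 ± 0.18 (95% interval -0.23 to 0.60, adjusted p = 0.519).

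G6pdx (chrX:74409483-74429195, minus strand) encodes glucose-6-phosphate dehydrogenase, which opens the pentose phosphate pathway and makes NADPH. It read 4.06, 5.68, 4.01, 6.04 and 5.27 FPKM in the Het-labelled MII libraries and 6.09, 5.06, 4.43, 4.77 and 4.18 in the KO-labelled ones. The 2cell values of G6pdx were 7.92, 5.41, 4.61, 3.92 and 4.11 in Het-labelled and 10.1, 14.7, 14.0 and 11.7 in KO-labelled libraries. The genotypes overlapped in MII, and in 2cell embryos every KO-labelled library lay above every Het-labelled one, of which A was the highest. G6pdx had the largest difference between genotypes of the members tested, 1.24 ± 0.24 on the log2 scale in 2cell embryos (adjusted p = 0.00801). The MII value was -0.12 ± 0.12 (95% interval -0.38 to 0.14, adjusted p = 0.486), and 0.06 after column-sum scaling. From MII to 2cell G6pdx rose by 1.19 ± 0.18 in KO-labelled libraries (adjusted p = 9.51e-06), while in Het-labelled libraries the value was -0.22 ± 0.17 (adjusted p = 0.251), and 0.02 with the values as deposited. The stage changes differed by 1.40 ± 0.25 (adjusted p = 0.00223). G6pd2, a near-identical copy on another chromosome to which reads could be assigned, was listed at 0.0494 to 0.30 FPKM over all libraries. Its log2 value was -0.01 ± 0.31 between genotypes in 2cell embryos (adjusted p = 0.982).

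**Figure D4:**
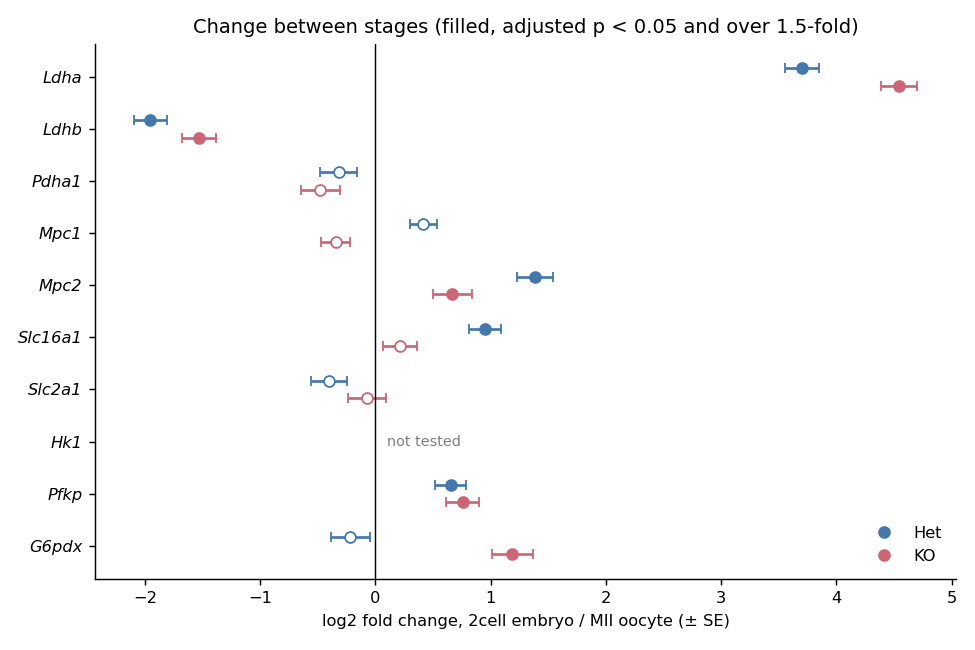
Log2 fold change from MII oocyte to 2cell embryo (x axis, limma, ± SE) for each member in libraries labelled Het (blue) and KO (red), with filled points for called changes. Ldhb fell and Mpc2 rose in both genotypes, the points of Ldha and Pfkp lie on the higher side as their passing the filter through the 2cell libraries requires, Slc16a1 was called in Het-labelled and G6pdx in KO-labelled libraries only, and for those 2 genes the changes differed between genotypes.

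By mean FPKM, Ldhb was first and Hk1 last of the members in every group. In MII oocytes of both genotypes Ldhb was followed by G6pdx, Mpc1 and Mpc2, then by Pdha1 and Slc16a1 in Het-labelled and by Slc16a1 and Pdha1 in KO-labelled libraries, and Slc2a1, Pfkp, Ldha and Hk1 closed the list. G6pdx and Mpc1 overlapped in both genotypes, as did Pdha1 and Slc16a1, and Mpc1 and Mpc2 overlapped in the KO-labelled libraries. In Het-labelled 2cell embryos the order was Ldhb, Mpc1, Mpc2, G6pdx, Slc16a1, Ldha, Pdha1, Slc2a1, Pfkp and Hk1, where Mpc1, Mpc2 and G6pdx overlapped in sequence, as did Slc16a1, Ldha and Pdha1, and Slc2a1 and Pfkp. In KO-labelled 2cell embryos G6pdx came before Mpc2 and Mpc1, and Ldha before Slc16a1, with no overlap between these neighbours. Among all genes at or above 0.1 FPKM on average, Ldhb ranked 192nd of 10423 in Het-labelled MII and 690th of 13710 in Het-labelled 2cell libraries. G6pdx ranked 2015th of 13710 in Het-labelled and 1034th of 14285 in KO-labelled 2cell libraries.

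The other genes of these pathways are given as counts, each list read against the shares of all genes named above and against a median over all genes of 0.01 in MII and -0.01 in 2cell embryos. Of the glycolysis genes, 10 of 24 were tested in MII and 3 were higher in KO-labelled libraries, with a median log2 fold change of 0.30. In 2cell embryos 13 were tested, 5 were higher and none was lower, with a median of 0.53. Gapdh, the dehydrogenase of glyceraldehyde 3-phosphate, was higher by 1.02 ± 0.18 in MII (adjusted p = 0.00513) and 1.54 ± 0.21 in 2cell embryos (adjusted p = 0.00194). Its level was low, 0.38 to 1.83 FPKM in MII and 0.776 to 4.15 in 2cell libraries, and it has many processed copies among which reads may be split. Pgam1 (phosphoglycerate mutase, 0.85 ± 0.15, adjusted p = 0.00513) and Pkm (pyruvate kinase, 0.75 ± 0.19, adjusted p = 0.0225) were the other two in MII. Eno3, the muscle-type enolase, read 0.0112 to 0.121 FPKM in Het-labelled 2cell libraries, 4 of them under the 3-fragment floor, and 0.240 to 0.661 in KO-labelled ones (log2 fold change 1.59 ± 0.31). It reached 0.1 FPKM in 1 of 5 Het-labelled and all 4 KO-labelled libraries and was thus tested through the group where it is high, so its call is no support for the count, which is 4 of 12 without it. Pkm (0.90), Pgk1 (0.81) and Gpi1 (0.64), named with Pkm in MII after their values were seen, were also called there. The calls of Pgk1 and Gpi1 held in 2 of the 9 fits that left out a library each (adjusted p up to 0.123 and 0.0833), those of Gapdh and Pkm in all 9, and that of Pkm in MII was lost without the Het-labelled library A (0.66, adjusted p = 0.0552) or the KO-labelled library C (0.70, 0.0523).

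From MII to 2cell, 12 of the 14 glycolysis genes tested were called higher in each genotype and none lower, with medians of 1.11 in Het-labelled and 1.38 in KO-labelled libraries, against 0.20 and 0.21 over all genes. Only 10 of the 14 also passed the filter among the MII libraries, so the count and the medians hold genes tested through their 2cell level. The blood genes and the sum of the cumulus and granulosa markers were higher in the 2cell libraries too, as given above. Of 5 such markers tested between stages, 3 were called higher and 1 lower in Het-labelled libraries, and 4 and 1 in KO-labelled ones. Cyp19a1 was lower in Het-labelled 2cell libraries (log2 fold change -1.64, limma adjusted p = 2.83e-07). Amhr2, Tnfaip6 and Vim reached 0.1 FPKM in no MII library and were tested only through their 2cell level. The part of these cells in the stage changes was not tested. The difference between the stage changes was called for 1 glycolysis gene, Eno3, whose MII libraries are all under the floor, so that it repeats the 2cell difference. Column-sum scaling moved the median of all genes between stages to -0.17 in Het-labelled and -0.07 in KO-labelled libraries, and the share of calls that were higher in 2cell from 57.1% to 45.6% in Het-labelled libraries.

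For lactate dehydrogenase and monocarboxylate transport, 0 of 3 other genes tested were called between genotypes in MII and 1 of 5 in 2cell embryos. That gene was Ldhd, the dehydrogenase of D-lactate, which was higher in KO-labelled libraries by 1.38 ± 0.36 (adjusted p = 0.0247). The other glucose transporters tested, 2 in each stage, were not called. In the pyruvate dehydrogenase complex and its regulators, 1 of 10 was lower in MII and 1 of 11 in 2cell embryos. These were Pdp1, a phosphatase that activates the complex (-1.10 ± 0.35, adjusted p = 0.0497, groups overlapping), and Pdhb, the partner subunit of Pdha1. Pdhb read 14.0 to 20.9 FPKM in Het-labelled and 6.52 to 10.4 in KO-labelled 2cell libraries, a log2 fold change of -1.05 ± 0.18 (adjusted p = 0.00480).

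In the pentose phosphate pathway Taldo1 (transaldolase) and Rpe (ribulose-phosphate epimerase) were lower in KO-labelled libraries in both stages, among 5 genes tested. Taldo1 fell from 9.28 ± 0.413 FPKM (SD, n = 5) in Het-labelled to 5.76 ± 0.865 (n = 5) in KO-labelled MII libraries, with log2 fold changes of -0.79 ± 0.13 in MII (adjusted p = 0.00268) and -0.75 ± 0.16 in 2cell embryos (adjusted p = 0.0126). Rpe had values of -0.65 ± 0.14 (adjusted p = 0.0120) and -1.11 ± 0.28 (adjusted p = 0.0209). Rpia, ribose-phosphate isomerase, was called higher in 2cell embryos (0.65), a call chosen after its values were seen that held in 3 of the 9 fits without a library. G6pdx was thus higher in KO-labelled 2cell libraries where Taldo1 and Rpe were lower. In the citric acid cycle 1 of 16 genes was called in MII, Suclg1, a subunit of succinyl-CoA ligase (-0.70 ± 0.12, adjusted p = 0.00357). In 2cell embryos Cs (citrate synthase, 0.86 ± 0.14, adjusted p = 0.00391) and Sdha (0.84 ± 0.23, adjusted p = 0.0319) were higher and Sdhb (-0.68, groups overlapping, named after its value was seen) was lower, the latter pair being subunits of succinate dehydrogenase. Calls near the threshold depended on single libraries. With 1 library left out the adjusted p rose to as much as 0.110 for Pdp1, 0.128 for Sdhb, 0.0833 for Sdha, 0.0640 for Rpe in 2cell embryos and 0.0683 for Ldhd, and column-sum scaling ended the call of Taldo1 in 2cell embryos (-0.40, adjusted p = 0.106).

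**Figure D5:**
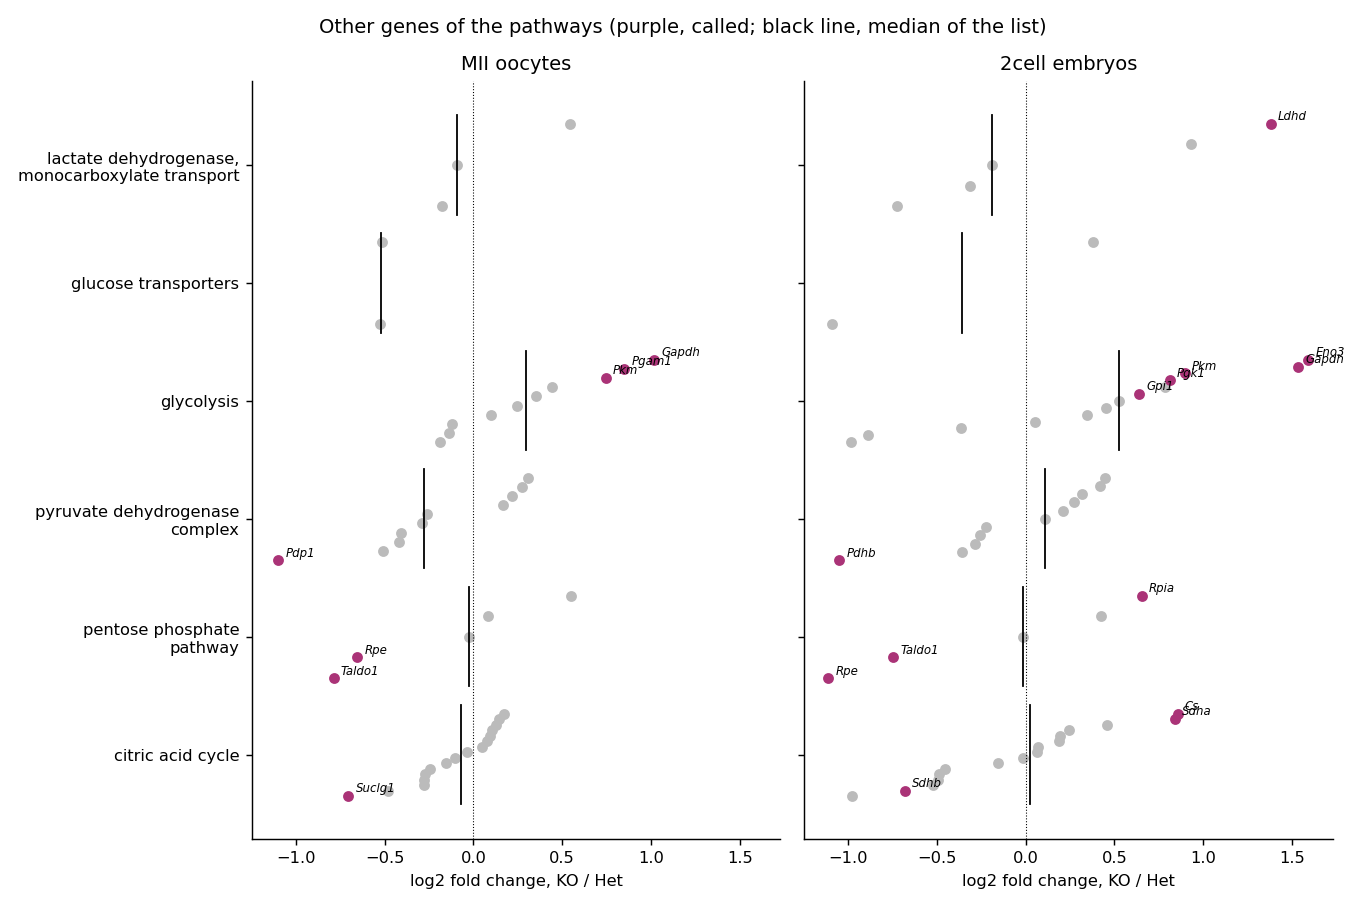
Log2 fold change between libraries labelled KO and Het (x axis) of the other tested genes of each pathway list, in MII oocytes and 2cell embryos. Each point is a gene, purple points are called and named, and black lines are list medians. The glycolysis genes have medians of 0.30 and 0.53, and their called genes all lie on the higher side.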

How the data were processed

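RNA of MII oocytes and 2cell embryos was amplified with a SMART-seq kit, which primes on poly(A) tails, and sequenced as paired 150 bp reads. Adapter trimming (Trim Galore 0.4.1) and alignment to GRCm38 (HISAT2 2.0.5) are named in the submitters' processing notes, and the authors deposited FPKM values computed in SeqMonk, in a table named as if it held raw counts. The low values fall at steps of 1 fragment (43.3% to 47.3% of those of genes with a single transcript lay within 0.05 of a whole number, 10% by chance), which gave the depth of each library, 17.2 to 23.5 M fragments. Fragments of a gene were reckoned at the length of its longest transcript, which need not be the length behind the deposited values, so they are approximate. Floors (3 fragments) cover counting error only, while the 95% intervals are limma's and rest on the spread between libraries. The labels name a NovaSeq and the methods another instrument, and the methods give quadruplicates where the labels give 4 or 5 libraries a group. Every labelled library was used, and 0 columns of values were left out.

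To make libraries comparable, each was scaled by a trimmed mean of its log ratios to a common reference (30% of ratios and 5% of levels trimmed) and log2(FPKM + 0.1) was fitted with limma 3.58.1 (R 4.3.3) with a variance trend. Genes needed 0.1 FPKM in 5 MII or 4 2cell libraries, and stage changes and their difference came from 1 fit of all libraries with 0.1 FPKM in 4. Called genes had a Benjamini-Hochberg adjusted p under 0.05 over all genes tested and a change over 1.5-fold. The 3 ratios were tested with two-sided exact permutation tests of the mean log2 ratio, 11 in all. The share of Ldha between stages was tested as a percentage, since 1 library is at 0, and its MII genotypes were not tested, since all are under the floor. On simulated data with 200 genes changed 4-fold, 96.5% were recovered for the MII genotypes (6081 genes), 85% for the 2cell genotypes (7689 genes), and 93.5% and 85% for the Het stage change and the difference between stages (7451 genes), with 6, 8, 4 and 11 unchanged genes called. Recovery of smaller changes, such as those called between genotypes here, was not simulated. Only genes with a mean level above the 0.1 FPKM filter by a margin were kept, so recovery and false calls among lower genes were not simulated either.

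The labels do not say whether the letters A to E pair libraries, and the main fits left the letters out. Between same-lettered libraries of the labelled genotypes the deviations from group means correlated by -0.175 to 0.120 in MII. In 2cell libraries they correlated by -0.0688 to 0.0368. Such correlations over few libraries cannot settle whether a batch was shared. The members and pathway lists were chosen with earlier results of these data known. All 10 members were named, and of each list the 2 genes with the largest called changes in each genotype comparison, plus Gapdh and Cpeb3. Pkm, Pgk1, Gpi1, Rpia, Sdhb and single markers such as Zscan4d were named outside this rule, after their values were seen. Of the lists, Slc16a8, Slc2a2, Slc2a6 and Hk3 and the markers Amh, Inha, Ptx3, Lhcgr, Hbb-bs, Hbb-bt, Ptprc and Alas2 were not matched. Positions and 3′ UTRs come from GENCODE vM21. Alternatives were other scalings, pseudocounts and filters, GC correction, 1 library left out, and the letter as a block.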

Additional observations from a re-analysis of the deposited data

Results flagged for a closer look

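For 4 members the test of a difference between the stages in the genotype difference was passed (limma, 1 fit of all libraries, KO over Het in 2cell embryos less the same in MII oocytes). It was 1.4 for G6pdx (adjusted p = 0.00223), 0.84 for Ldha (adjusted p = 0.0233), -0.76 for Mpc1 (adjusted p = 0.0120) and -0.73 for Slc16a1 (adjusted p = 0.0338) on the log2 scale. The value for Ldha repeats its 2cell difference, since all MII libraries are under the 3-fragment floor, and shows no dependence on stage. The call of Slc16a1 was lost in 8 of 19 fits without a library (adjusted p up to 0.0705), after column-sum scaling (0.0906) and with the GC trend removed (0.0855).

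A library stood apart from the others of its group in 3 of 56 groups of values examined with Dixon's test, where chance gives about 1 in 20. Mpc2 was 5.68 FPKM in the 2cell library labelled KO B, below the others of that group. Pfkp was 0.0871 FPKM in the MII library labelled KO A and 0.220 FPKM in the 2cell library labelled KO C, above the others in each case. Pfkp rests on few fragments in these libraries.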

How the results depend on the processing

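The count of members called in MII oocytes (1) was 0 with a pseudocount of 1 FPKM, with no filter and with the replicate block, and 0 to 1 with a library left out. In 2cell embryos (3) it was 3 to 5 with a library left out. The stage change in KO-labelled libraries (5) gave 3, and the difference between stages (4) gave 2, with a pseudocount of 1 FPKM. With a library left out these counts were 5 to 5 and 3 to 5. Slc16a1 lost its call in the difference between stages without Het-labelled 2cell library B, D or E, Het-labelled MII library C or D, KO-labelled 2cell library C or KO-labelled MII library C or D (adjusted p up to 0.0705), after column-sum scaling and with the GC trend removed. The replicate block left 0 members called in 2cell embryos (Mpc1 -0.93, adjusted p = 0.0569, G6pdx 1.16, 0.0724, Ldha 0.93, 0.0674). Over all genes it left 824 calls in MII (1355 without it) and 414 in 2cell embryos (2565). The labels do not say whether the letters mark a shared batch.

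Directions that turned belong to members not called. They were Mpc1 (0.0663) and G6pdx (0.0561) in MII after column-sum scaling, Ldhb (-0.0588) and Slc2a1 (-0.0225) in MII with the GC trend removed, and Mpc2 in 2cell embryos (0.24 after column-sum scaling, 0.0077 with a filter of 1 FPKM, 0.11 with the GC trend removed). Between stages they were G6pdx (0.0233 as deposited, 0.0601 scaled to the median ratio) and Mpc1 (-0.12, column sum) in Het-labelled libraries, and Slc2a1 (0.0433 as deposited, 0.11 median ratio, -0.18 to 0.0387 with a library left out) and Slc16a1 (-0.17, column sum) in KO-labelled ones. The difference between stages of Pfkp ran from -0.0093 to 0.19 with a library left out. On the log2 scale the ratio of Mpc1 to Mpc2 in MII ran from -0.94 to -0.62 with a library left out, and that of Slc16a1 to Slc2a1 from -0.0426 to 0.16. The change of the latter between stages in KO-labelled libraries was 0.22 with a pseudocount of 1 FPKM (exact permutation test, p = 0.0317).

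Over all genes, a pseudocount of 1 FPKM left 481 calls in MII and 1178 in 2cell embryos, 5292 and 5269 between stages in Het-labelled and KO-labelled libraries (10509 and 10282 at 0.1) and 791 for the difference between stages (1206). A filter of 1 FPKM left 774, 1496, 5283, 5146 and 794. Without the fold threshold MII had 2247 calls. At this depth Hk1, and Ldha and Pfkp in MII oocytes, were too low to be compared.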
